A study of Arabidopsis thaliana with 8 samples.

Results

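GH9B11 (AT2G44560) and GH9B12 (AT2G44570) are genes of Arabidopsis thaliana that encode endoglucanases of glycosyl hydrolase family 9. They were chosen by name, with earlier results of the same light comparison known. They are among 4 family genes that have a microarray probe paired with them alone, the others being GH9B8 and GH9B16. GH9B11 and GH9B12 have 1 such probe each, so that 2 of the 691 genes with a probe of their own are described. Both were compared between plants held for 48 h in red light (4 samples) and plants held for 48 h in white light (4 samples), each at 20 µE. All plants were wild type of the ecotype Landsberg, and total RNA was measured. The labels give neither the tissue, nor the age, nor the light before this treatment. Nor do they state that samples of a group are separate plants or cultures, so errors and p-values measure the spread among these 8 samples alone, and that spread may be technical.

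Family 9 glycosyl hydrolases of plants cut the beta-1,4 bonds inside glucan chains, and they act on cellulose and related polymers of the cell wall. Class A members such as KORRIGAN (GH9A1) are anchored in membranes and are needed for cellulose synthesis. Class B members, to which GH9B11 and GH9B12 belong, are secreted enzymes without a carbohydrate-binding module, whereas class C members carry such a module. Cell wall loosening and growth of seedlings are processes that light is well known to control.

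On the chromosome the 2 genes are neighbours. In the gene order of the RefSeq table for TAIR10.1, a run of 4 family 9 genes stands with no annotated gene in between, in the order GH9B9, GH9B10, GH9B11, GH9B12. The array holds 4 probes for this run. One is paired with GH9B11 alone, one with GH9B12 alone, one with GH9B9 and GH9B10, and one with all 4 genes together. Signal on the last 2 cannot be assigned to any single gene. Probe sequences were not used here, and whether transcripts of one gene of the run bind the probe of another was not tested.

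The table lists 3439 probe intensities per sample on a linear scale of arbitrary units. Summed intensity ran from 2549 to 3196 in red samples and from 1691 to 2373 in white samples. The median intensity of an array went the other way, with overlap, from 0.202 to 0.257 in red samples and from 0.237 to 0.289 in white samples. Precision is limited by there being 4 arrays per group. Samples 1 and 2 of a group resembled each other, as did samples 3 and 4, with Spearman correlations across probes of 0.910 to 0.947 within and 0.777 to 0.825 between these pairs. Whether a pair is 1 plant sample measured again cannot be told from the labels. Of 25 marker genes listed for green tissue, root, pollen, flower and seed, only 4 had a probe of their own, all of them among the 8 green tissue genes. These were LHB1B2, PSAN, PSBW and PRK. The content of other organs was not measured. PSBW, a photosystem II subunit, ran from 35.0 to 100 in red samples and from 8.13 to 14.2 in white samples, without overlap. LHB1B2, a light-harvesting protein, ran from 10.5 to 24.8 in red samples and from 2.61 to 14.7 in white samples. PSAN and PRK overlapped, with 1.79 to 2.64 in red samples and 1.87 to 2.66 in white samples for PSAN, and with 0.414 to 0.648 in red samples and 0.511 to 0.625 in white samples for PRK. The part of tissue content in the values below was not tested.

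GH9B12 was the gene of the 2 with the larger difference. Its intensity as deposited was 0.330, 0.340, 0.350 and 0.325 in red samples 1 to 4, against 1.25, 1.21, 0.781 and 0.697 in white samples 1 to 4. Every red sample lay below every white sample, and the red values were nearly equal while the white values fell into a high pair and a lower pair. The means were 0.336 ± 0.0111 under red light and 0.984 ± 0.285 under white light (± SD, n = 4 each).

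GH9B11 had intensities of 0.226, 0.249, 0.553 and 0.571 in red samples 1 to 4, against 0.692, 0.596, 0.764 and 0.751 in white samples 1 to 4. The groups did not overlap here either, but the highest red value came close to the lowest white value. The means were 0.400 ± 0.188 under red light and 0.701 ± 0.0761 under white light (± SD, n = 4 each). For this gene the spread lay in the red samples, where samples 1 and 2 were low and samples 3 and 4 were high.

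Because the total intensity differed between the groups, the arrays were also quantile-normalized, which gives all arrays the same distribution of values. On that scale GH9B12 had 0.384, 0.400, 0.319 and 0.299 in red samples 1 to 4, against 1.80, 1.76, 0.686 and 0.598 in white samples 1 to 4. GH9B11 had 0.269, 0.296, 0.479 and 0.482 in red samples 1 to 4, against 0.985, 0.820, 0.675 and 0.652 in white samples 1 to 4. Red and white samples of both genes still did not overlap. Normalization raised white samples 1 and 2 of both genes and lowered white samples 3 and 4, so that the spread of GH9B12 among white samples became wider. Separation of this kind, with every red sample below every white sample, was found for 14.8% of the 3032 probes tested after normalization and for 19.7% of them as deposited. All 8 values of both genes lay above the floor of 0.0716 below which normalized intensities were not ordered.

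**Figure D1:**
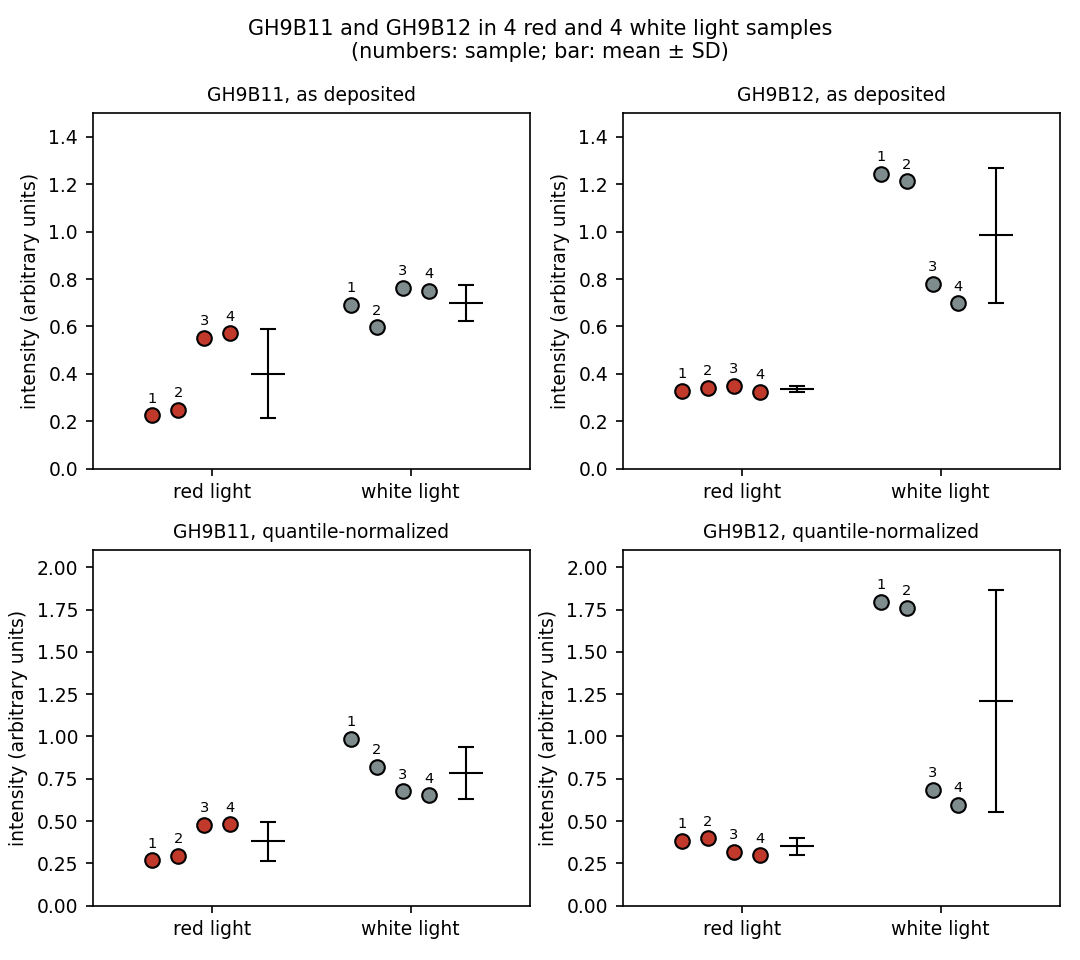
Intensity (arbitrary units) of GH9B11 (left) and GH9B12 (right) in red and white light, as deposited (top) and after quantile normalization (bottom). Points are samples with their number, and bars give the mean ± SD of 4 samples. Every red point lies below every white point in all 4 panels, and the white samples of GH9B12 form a pair near 1.2 and a pair near 0.7 on the deposited scale.

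The linear model gave a log2 difference, red minus white, of -1.62 ± 0.40 (SE) for GH9B12 and of -1.07 ± 0.27 (SE) for GH9B11. The level in red light was thus 0.326 times that in white light for GH9B12 and 0.477 times for GH9B11. These values are a description, since the genes were taken up with the result of this comparison known, and no p-value is given for them. At a limma adjusted p under 0.05 both genes counted as lower, as did 10.9% of all 3032 probes and 10.7% of the probes of 1 gene. In either direction 22.0% of all probes and 23.9% of the probes of 1 gene were called. In bulk tissue a smaller share of cells with a transcript and less transcript per cell cannot be told apart.

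Among all tested probes, 96 had a lower difference than GH9B12 and 310 had a lower difference than GH9B11. Counted over the 614 tested probes of 1 gene, these numbers were 17 and 64. The median difference was -0.03 over all probes and -0.06 over probes of 1 gene. Both genes therefore lay in the lower part of the distribution, GH9B12 further out than GH9B11.

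**Figure D2:**
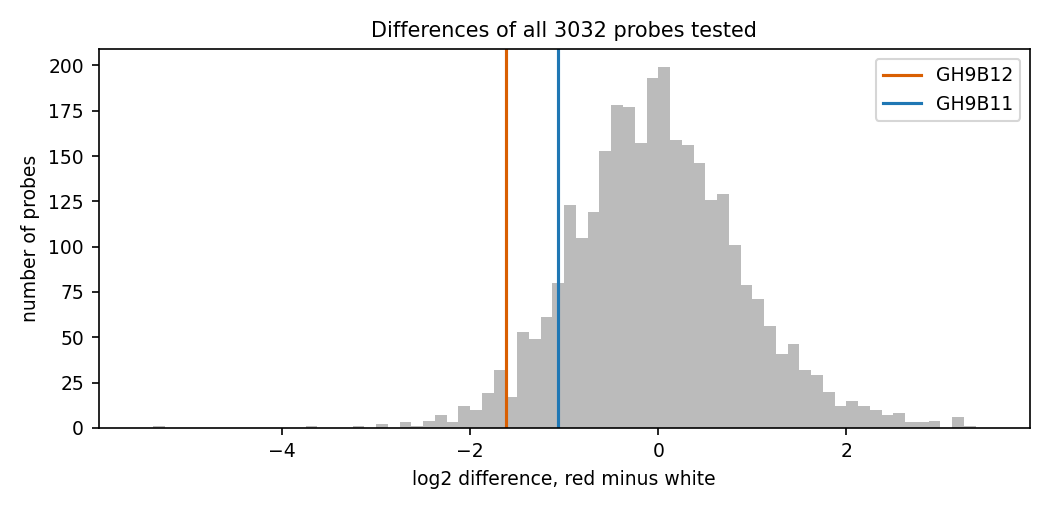
Histogram of the log2 difference, red minus white, of the 3032 probes tested, with the number of probes on the vertical axis. Vertical lines mark GH9B12 at -1.62 and GH9B11 at -1.07, and 96 and 310 probes lie to the left of them.

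The size of the difference was not even across the samples. Between same-numbered samples, GH9B12 differed by -2.22, -2.14, -1.11 and -0.998 on the normalized log2 scale for samples 1 to 4. GH9B11 differed by -1.87, -1.47, -0.50 and -0.44 for the same pairs. Both genes were lower in the red sample of all 4 pairs, as were 24.5% of the tested probes, and in both the difference was larger for samples 1 and 2 than for samples 3 and 4.

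On the deposited scale the same differences were -1.92, -1.83, -1.16 and -1.10 for GH9B12 and -1.62, -1.26, -0.47 and -0.39 for GH9B11. In the fit on that scale the median difference over all probes tested was -0.14. With each array centred on its median, the mean difference was -1.30 for GH9B12 and -0.74 for GH9B11. All 3 scales thus placed GH9B12 further below 0 than GH9B11 in every pair of same-numbered samples. GH9B12 was also called lower on the deposited scale, where 15.4% of probes were, and with median centring, where 11.9% were. GH9B11 was not called in these 2 fits.

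**Figure D3:**
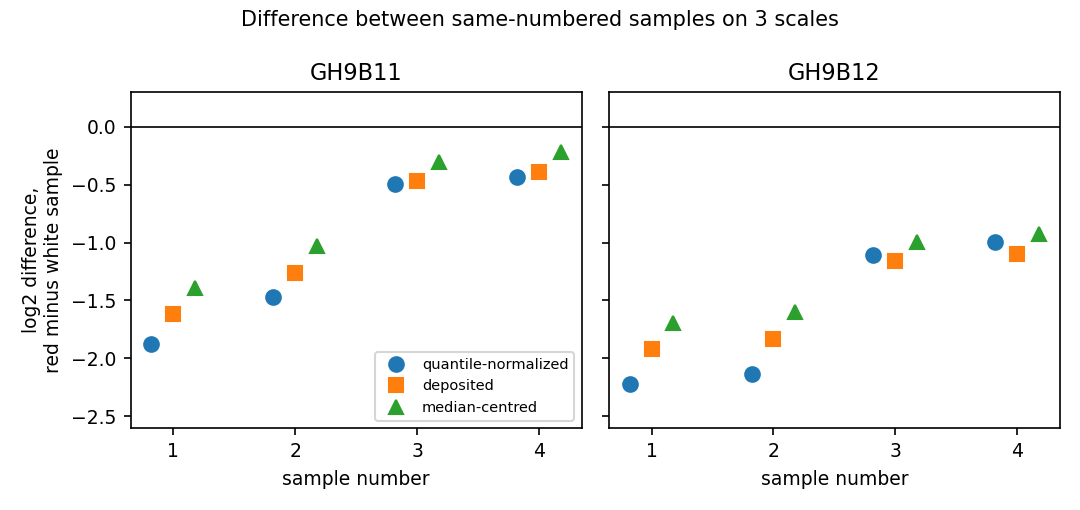
Log2 difference between the red and the white sample of each number (1 to 4) for GH9B11 (left) and GH9B12 (right), after quantile normalization (circles), as deposited (squares) and with median centring (triangles). All points lie below 0, and samples 1 and 2 lie lower than samples 3 and 4 on each scale.

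The calls also depended on how the samples were tied. With the sample number as a block, GH9B12 was called and GH9B11 was not, and 13.3% of all probes were called lower. With samples 1 and 2, and samples 3 and 4, of a group as random blocks, neither gene was called, and 1.42% of probes were called lower. Leaving out white sample 1 or white sample 2 ended both calls. Without red sample 1 or red sample 2 the call of GH9B11 was lost, and without red sample 3 or red sample 4 that of GH9B12. Calls fell across the array in these fits, with 214 to 246 of the 3032 probes called lower, against 332 with all samples. The log2 difference stayed between -1.90 and -1.37 for GH9B12 and between -1.20 and -0.92 for GH9B11 when single samples were left out.

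The 2 genes differed in where the unevenness lay. On the deposited scale the red mean of GH9B11 in samples 1 and 2 was lower than that in samples 3 and 4 by 1.25 on the log2 scale (difference -1.25), while the white means differed by -0.24. For GH9B12 the same comparison gave -0.01 in red light and 0.74 in white light. Quantile normalization gave -0.77 in red light and 0.44 in white light for GH9B11, and 0.35 in red light and 1.47 in white light for GH9B12. GH9B11 thus varied most between red samples, and GH9B12 most between white samples, on both scales.

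A ratio of both probes within an array does not change when the whole array is scaled. Its size has no meaning by itself, since probes differ in how they bind, but its change between arrays does. The log2 ratio of GH9B12 to GH9B11 was 0.55, 0.45, -0.66 and -0.81 in red samples 1 to 4, against 0.85, 1.02, 0.03 and -0.11 in white samples 1 to 4. The groups overlapped in this ratio, with means of -0.12 ± 0.72 under red light and 0.45 ± 0.57 under white light (± SD, n = 4 each). Within each of the 4 same-numbered pairs the red sample had the lower ratio, by -0.30, -0.57, -0.70 and -0.71. Samples 1 and 2 exceeded samples 3 and 4 in this ratio by 1.24 in red light and by 0.97 in white light. That step between the pairs of samples was larger than the step of -0.57 between the light conditions.

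The probe paired with all 4 genes of the run also gave lower values in red light. Its intensity as deposited was 0.0806, 0.132, 0.275 and 0.264 in red samples 1 to 4, against 0.622, 0.602, 0.701 and 0.701 in white samples 1 to 4. The groups lay far apart, with a log2 difference of -1.95 ± 0.31 (SE) after normalization, which is again a description because the probe includes the 2 genes. The probe of GH9B9 and GH9B10 had 0.0562, 0.124, 0.197 and 0.219 in red samples 1 to 4, against 0.298, 0.295, 0.273 and 0.266 in white samples 1 to 4. Its groups did not overlap, but the log2 difference of -0.79 ± 0.32 (SE) did not pass the test (limma adjusted p = 0.109). For that probe samples 1 and 2 gave a mean difference of -1.46, whereas samples 3 and 4 gave -0.11. Its red sample 1 lay close to the floor of 0.0716, at 0.0894 after normalization. With the floor at the 20th percentile its difference over all samples was -0.60.

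Over the samples, GH9B11 followed the shared probes of the run more closely than GH9B12 did. Across the 8 samples the Pearson correlation of normalized log2 values with the probe of all 4 genes was 0.98 for GH9B11 and 0.82 for GH9B12. With the group means removed, so that the light difference no longer enters, it was 0.96 for GH9B11 and 0.24 for GH9B12. With the probe of GH9B9 and GH9B10, the correlations without group means were 0.90 for GH9B11 and 0.29 for GH9B12. GH9B11 and GH9B12 correlated with each other with 0.79 over the 8 samples and with 0.28 once the group means were removed. The value over the 8 samples depended on the scale, with 0.64 as deposited and 0.56 with median centring. These correlations describe 8 arrays that share pairs of similar samples, and no test is attached to them.

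**Figure D4:**
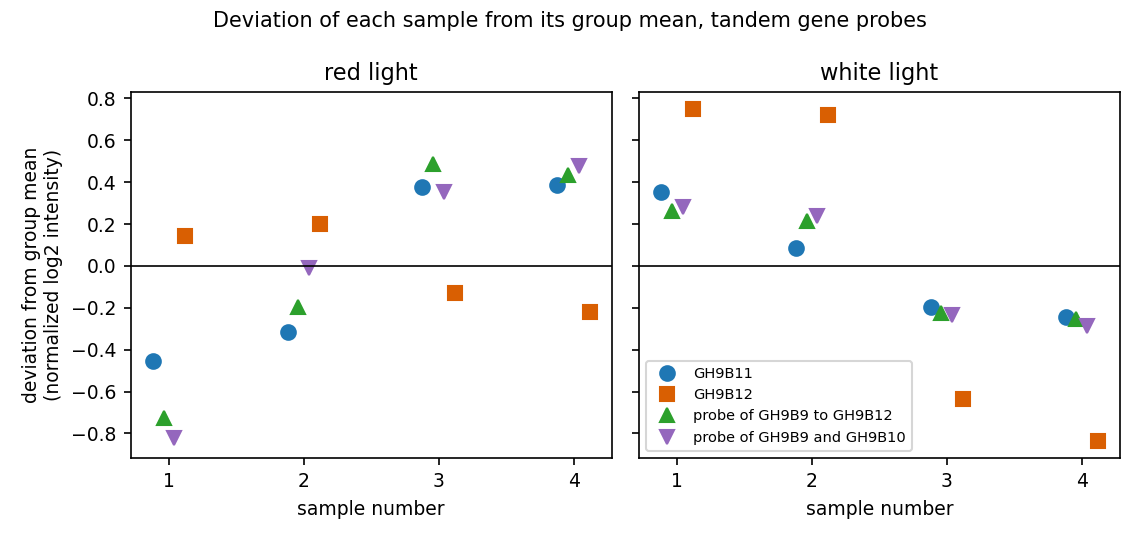
Deviation of each sample from the mean of its light group (normalized log2 intensity) for GH9B11, GH9B12, the probe of all 4 genes of the run and the probe of GH9B9 and GH9B10, in red light (left) and white light (right). In red light GH9B12 lies above its mean in samples 1 and 2, where the other 3 probes lie below theirs. In white light all 4 probes lie above their mean in samples 1 and 2 on this scale. As deposited, white samples 1 and 2 minus white samples 3 and 4 gave -0.24 for GH9B11 and -0.20 for the probe of all 4 genes. The same comparison gave 0.74 for GH9B12 and 0.14 for the probe of GH9B9 and GH9B10.

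The rest of family 9 was measured thinly. Of 25 family genes, 12 were paired with at least 1 of 11 probes, and 4 genes had a probe of their own, namely GH9B8, GH9B11, GH9B12 and GH9B16. Outside the run of 4 genes, 6 of 7 family probes could be tested, and 0 passed in limma over all 8 samples, with 0 at an unadjusted p under 0.05. Fits to only part of the samples did call 4 of the 6. From only samples 1 and 2, where 1268 probes were called, these were the probe of GH9B14 and GH9B15 with 1.196 (limma adjusted p = 0.00908) and that of GH9C2 and GH9C3 with -0.50 (limma adjusted p = 0.0233). From only samples 3 and 4, where 1176 probes were called, they were GH9B8 with 1.21 (limma adjusted p = 0.0139) and the probe of GH9B17, GH9B18 and AT3G42155 with -1.10 (limma adjusted p = 0.0251). In samples 3 and 4 both white values of GH9B8 and both red values of that probe were at the floor. Their differences there are distances to the floor and measure no fold. With the common floor and all 8 samples, the 4 probes of the run had the 4 lowest differences of the 10 tested family probes. This order depended on low values, since with an offset in place of the floor the probe of GH9B17, GH9B18 and AT3G42155 had -0.88, against -0.57 for the probe of GH9B9 and GH9B10.

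GH9B8, a class B gene, had 0, 0, 0.171 and 0.131 in red samples 1 to 4, against 0.203, 0.108, 0.0763 and 0.0136 in white samples 1 to 4. The groups overlapped, and the log2 difference was 0.18 ± 0.44 (SE, limma adjusted p = 0.809). GH9B16, also of class B, was listed at 0, 0.0380, 0.264 and 0.364 in red samples 1 to 4, against 0, 0, 0.108 and 0.173 in white samples 1 to 4. Its groups overlapped as well, with a log2 difference of 0.77 ± 0.54 (SE, limma adjusted p = 0.334). Both genes lay above the floor in only 2 red and 2 white samples, so that their differences are poorly measured, and the sign of GH9B8 changed with the treatment of low values.

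Among the probes of several family genes, that of the class C genes GH9C2 and GH9C3 averaged 0.429 ± 0.0240 under red light and 0.539 ± 0.0892 under white light (± SD, n = 4 each). Its log2 difference was -0.40 ± 0.23 (SE, limma adjusted p = 0.231). Of 2 probes paired with GH9B14 and GH9B15, one was at the floor on all arrays, while the other averaged 0.372 ± 0.182 under red light and 0.265 ± 0.155 under white light (± SD, n = 4 each). The measured one had a log2 difference of 0.77 ± 0.46 (SE, limma adjusted p = 0.252), and the other gave no difference to set beside it. The probe of GH9B16, GH9B17 and GH9B18 had 0.05 ± 0.72 (SE, limma adjusted p = 0.970). The probe of GH9B17, GH9B18 and AT3G42155 was listed at 0 in all 4 red samples and between 0.0122 and 0.214 in white samples, of which 2 lay above the floor. Its difference is set by the floor and measures no fold, with -0.55 in the fit (limma adjusted p = 0.233) and -0.060 with the floor at the 20th percentile.

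**Figure D5:**
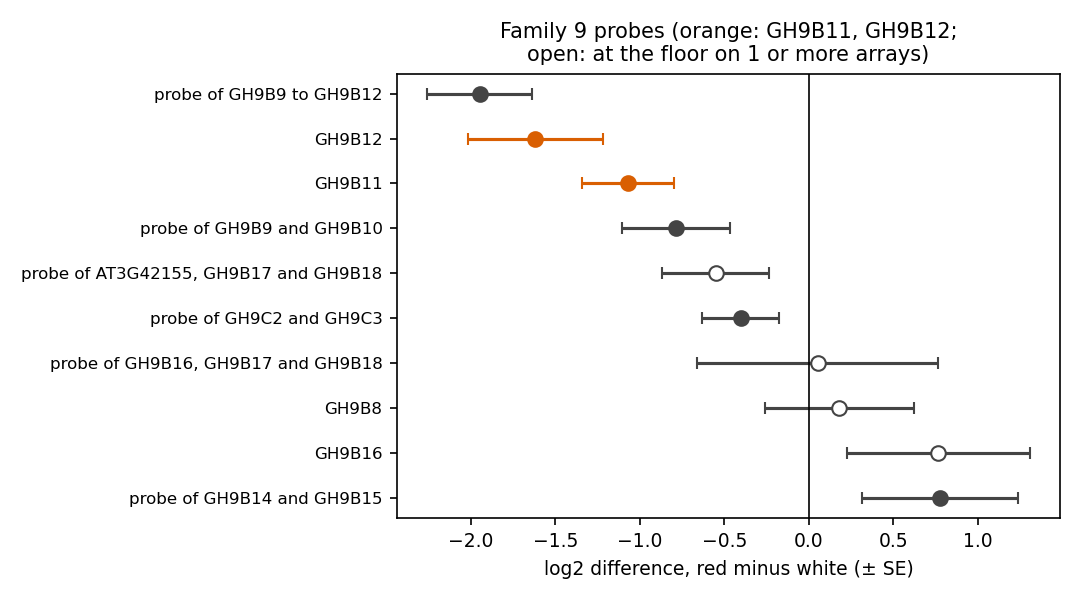
Log2 difference, red minus white, with its SE for the 10 family 9 probes tested, from the lowest at the top to the highest at the bottom. GH9B12 (-1.62) and GH9B11 (-1.07) are in orange, and open points mark probes at the floor on at least 1 array. The 4 probes of the run GH9B9 to GH9B12 lie at the top with this floor, and the value of the probe of GH9B17, GH9B18 and AT3G42155 (-0.55) is set by the floor.

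Few probes were found for other cell wall genes. These were listed by gene symbol and synonym, so that wall genes without a telling symbol may be missing. Of the 617 genes listed for cellulose, hemicellulose, pectin, wall proteins, other glycosyl hydrolases and lignin, 1 had a probe of its own. This was CSLA01, of a family that makes glucomannan backbones, which had 0.0874 ± 0.0423 under red light and 0.186 ± 0.0163 under white light (± SD, n = 4 each). Its log2 difference was -0.54 ± 0.29 (SE, limma adjusted p = 0.203), but it passed on the deposited scale with -0.96 (limma adjusted p = 0.0183) and with median centring with -0.91 (limma adjusted p = 0.0349). Red samples 1 and 2 had 0.0350 and 0.0712 as deposited, below the floor of 0.0751 on that scale, so that the floor enters the difference. With the floor at the 20th percentile the difference was -0.20. All lists together, family 9 included, held 5 genes with a probe of their own, of which 0 were called higher and 2, GH9B11 and GH9B12, were called lower, where 10.9% of all probes were. The median of -0.54 over these 5 includes both genes. The other 3, CSLA01, GH9B8 and GH9B16, had -0.54, 0.18 and 0.77, and none of them was called, while the median over all probes was -0.03.

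Another 4 probes were paired only with genes of 1 such list. The probe of the beta-glucosidase genes BGLU45 and BGLU46 averaged 0.163 ± 0.0240 under red light and 0.387 ± 0.0621 under white light (± SD, n = 4 each) and fell, with a log2 difference of -1.08 ± 0.29 (SE, limma adjusted p = 0.0277). With pairs of samples as random blocks its limma adjusted p was 0.170, and the call was lost without red sample 1, 3 or 4 or white sample 1 or 2 (limma adjusted p = 0.0610 to 0.0706). The expansin-like probe of EXLA2 and EXLB1 had 0.10 ± 0.30 (SE, limma adjusted p = 0.844). Both CSLC probes, of a family that makes xyloglucan backbones, had positive differences that did not pass, 0.73 ± 0.44 (SE, limma adjusted p = 0.248) for that of ATCSLC08, CSLC5, CSLC04 and CSLC12 and 0.30 ± 0.17 (SE, limma adjusted p = 0.236) for that of ATCSLC08, CSLC5 and CSLC6. The probe of ATCSLC08, CSLC5 and CSLC6 had 0.60 on the deposited scale (limma adjusted p = 0.0793), and it passed with median centring, with 0.80 (limma adjusted p = 0.0150), and without the filter on low probes (limma adjusted p = 0.0165).

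Near the run on the chromosome, the 10 annotated genes to either side of GH9B11 and GH9B12 included 1 with a probe of its own. This gene, AT2G44530, stands next to GH9B9. It averaged 0.410 ± 0.123 under red light and 0.479 ± 0.0391 under white light (± SD, n = 4 each), with a log2 difference of -0.36 ± 0.24 (SE, limma adjusted p = 0.303). From only samples 1 and 2, where 1268 probes were called, the neighbour had -0.83 (limma adjusted p = 0.0354). From only samples 3 and 4 it had 0.11. Over all 8 samples its values overlapped between the groups, unlike those of the 4 probes of the run. The separation was narrow for the probe of GH9B9 and GH9B10, with a highest red value of 0.220 and a lowest white value of 0.223 after normalization. Separation of this kind was found for 14.8% of all probes tested.

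The genes whose pattern over the 8 samples was most like that of GH9B12 differed from those most like GH9B11. Likeness was the Pearson correlation of normalized log2 values over 430 probes of 1 gene without a value at the floor. For GH9B12 it was highest for AT4G00170 (0.99), AT1G61590 (0.98), LPA19 (0.98), GLR2.7 (0.98) and PRA1.B3 (0.98). LPA19 is a factor of photosystem II accumulation, GLR2.7 a glutamate receptor-like gene and PRA1.B3 a prenylated RAB acceptor. AT4G00170 had normalized intensities of 0.248, 0.247, 0.227 and 0.214 in red samples 1 to 4, against 0.801, 0.786, 0.408 and 0.408 in white samples 1 to 4. It had the same flat red values and the same high white pair as GH9B12.

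For GH9B11 the most alike were AT4G34310 (0.98), AT1G11820 (0.98), Z-ISO (0.98), AT1G02020 (0.95) and AT2G21960 (0.95). Z-ISO encodes the 15-cis-zeta-carotene isomerase of carotenoid synthesis. AT4G34310 had normalized intensities of 0.139, 0.130, 0.221 and 0.243 in red samples 1 to 4, against 0.378, 0.338, 0.303 and 0.306 in white samples 1 to 4. Like GH9B11, it was lowest in red samples 1 and 2. In the order of likeness GH9B12 took place 42 for GH9B11, and GH9B11 took place 53 for GH9B12. The log2 differences of these genes, which likeness to the pair favours, ran from -1.72 to -0.88 for those like GH9B12 and from -2.09 to -0.90 for those like GH9B11.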

How the data were processed

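The deposited values are probe intensities, 1 column for each of 8 samples. For background, scaling, filters and genome build, what the authors did is not given in the sources used here. Scale and centring of the deposited table therefore stay unknown. Of 3439 probes, the platform annotation, which is old, pairs 692 with 1 gene, 870 with several and 1877 with none, and 690 of the first class matched the TAIR10.1 gene table, used for names and gene order only.

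Arrays were quantile-normalized, values below a common floor of 0.0716 (the highest of the arrays' 5th percentiles of positive values) were set to it, and 407 probes at the floor on all arrays were left out. Log2 values of 3032 probes were fitted, red minus white, two-sided, with limma 3.58.1 in R 4.3.3 and Benjamini-Hochberg adjustment over all probes. Samples that share a number in the labels had positively correlated deviations from the means of their groups (0.239 to 0.320, against -0.206 to 0.107 for other numbers), so that the number was also fitted as a block; the tie comes from the data.

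Members, gene lists and settings were chosen with earlier results of these data known. Named genes are the 2 members, other family 9 genes, list genes with a probe, the 5 genes most like each member and measured neighbours; probes of several listed genes were added after the values were seen, as were the within-array ratio and the correlations without group means. Lists were matched on gene symbols and synonyms. Alternatives changed the scale, the treatment of low values, the filter, the variance model and the samples. Plots used matplotlib 3.10.9 in Python 3.11.15.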

Additional observations from a re-analysis of the deposited data

How the results depend on the processing

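The log2 differences of GH9B11 and GH9B12 were below 0 in all 22 alternatives run, between -1.67 and -0.47 for GH9B11 and between -2.18 and -1.05 for GH9B12. That of GH9B11 moved by more than the spread between replicates in 2 of them, to -1.67 from only samples 1 and 2 and to -0.47 from only samples 3 and 4. Limma called 666 probes, 334 higher and 332 lower, against 294 higher and 467 lower as deposited. It called 788 with the replicate block, 1254 with a floor per array (868 higher), 114 with pairs as random blocks and 453 to 613 without 1 sample. With pairs averaged it called 0, with 458 at an unadjusted p under 0.05, and it called 1268 from only samples 1 and 2 and 1176 from only samples 3 and 4. Of the 5 listed genes with a probe of their own, 2 were called, where 22.0% of all probes were. These 2 were GH9B11 and GH9B12, taken up with this result known, so that the count is a description. The count was 1 with the replicate block, 0 with pairs as random blocks or averaged and 0 to 2 without 1 sample. It was 3 from only samples 1 and 2 and 3 from only samples 3 and 4. With the 9 tested probes of several genes of 1 list added to the 5, it was 4. Signs turned for probes that did not pass. GH9B8 had -0.056 with median centring, -0.11 with an offset and -0.026 with the floor at the 20th percentile. It had -0.84 from only samples 1 and 2 and -0.063 to 0.53 without 1 sample. From only samples 3 and 4 it had 1.21, which passed with both white values at the floor. The probe of GH9B16, GH9B17 and GH9B18 had -0.29 as deposited, -0.094 with median centring, -0.20 with the higher floor, -0.39 in samples 3 and 4 alone and -0.47 to 0.48 without 1 sample. The probe of GH9B17, GH9B18 and AT3G42155 had 0.16 with a floor per array. EXLA2 and EXLB1 had -0.061 to 0.24 without 1 sample. In samples 3 and 4 alone CSLA01 had 0.084 and AT2G44530 had 0.11. The cause of these turns was not tested.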
